A study of Homo sapiens with 10 samples.

Results

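TPC-1 is a long-established line from a human papillary thyroid carcinoma in which the RET kinase is fused to CCDC6 (RET/PTC1). Its RNA was sequenced in bulk in 10 libraries, which stand in 2 count tables; all were made from total RNA with the NEBNext Ultra RNA kit. The first table (here the first set) holds replicates 1 to 3 of cells transfected with an empty vector (EV) and replicates 1 to 3 of cells transfected with a vector for overexpression (OE) of the long non-coding RNA PTCSC3-AS1. The second table (the second set) holds replicates 4 and 5 of EV and of OE. The comparison described here is that of the second set with the first: 4 libraries (2 EV, 2 OE) against 6 (3 EV, 3 OE), chosen only by the table they stand in, out of 10 in all, with the vector as a term of the model. All groups share the cell line and the labelled treatment with a vector, and differ within a set only in which vector was used. The OE columns carry another name in the first table (EST_OE) than in the second (OE), and whether both sets used one construct was not given in the sources used here.

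Culture, passage, day and sequencing run may differ between the sets. How they were assigned was not given in the sources used here, so these cannot be told apart from one another or from the set. Nothing in the labels says that replicates came from separate cultures, and p-values therefore refer to the spread of these libraries only, part of which may be technical. PTCSC3-AS1 itself was not analysed here.

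Several gene programmes of a cultured line are known to follow its immediate surroundings. Immediate-early genes such as EGR1 and FOS are switched on within minutes by growth factors through the MAPK cascade and serum response factor (SRF), and their products decay as fast. Sterol-synthesis genes follow the sterol content of membranes through SREBP2, chaperone genes follow unfolded protein through HSF1, and replication genes follow entry into S phase through E2F factors. In a carcinoma line with a RET fusion, MAPK signalling is driven by the fused kinase, and serum adds to it.

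Library sizes were alike in both sets, at 15761474 to 18066559 counts and 20630 to 22029 detected genes per library. The first principal component of the 1000 most variable genes (31.2% of the variance) placed all 4 second-set libraries on one side (scores of 13.7 to 24.1) and all 6 first-set libraries on the other (-20.3 to -9.50). EV replicate 2 had the lowest score on the second component (-25.5, with -7.85 to 17.1 in the others), and its ribosomal protein genes took 7.08% of counts against 4.75% to 5.85% elsewhere. Of 9 library measures none passed an exact two-sided permutation test between the sets after Benjamini-Hochberg adjustment. With 210 possible splits, even a measure without overlap between the sets could fail, so this does not show the libraries to be alike. The lowest p-values were those of the share of counts on histone genes, given below, and of the share on small nuclear and miscellaneous RNA genes. The latter was 0.00882% ± 0.00216 in the first set (SD, n = 6) and 0.00652% ± 0.000974 in the second (SD, n = 4), without overlap (exact permutation p = 0.0190, adjusted p = 0.0857).

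The thyroid carcinoma markers were examined first. PAX8, the thyroid lineage transcription factor, ran from 358 to 478 CPM (counts per 1000000 counts of the library, after scaling of library sizes by TMM factors) in the first set with a median of 426, and stood at 375, 434, 378 and 430 CPM in EV replicates 4 and 5 and OE replicates 4 and 5. MET and RET, which code for receptor tyrosine kinases, likewise overlapped between the sets, with log2 changes of -0.08 and 0.09 (SE 0.09 and 0.07). Of 13 such markers 10 were tested, and 1 (KRT7, a simple-epithelium keratin) was higher and 1 (FN1, fibronectin) lower in the second set. Each is 10% of the tested markers, against 8.31% of all tested genes higher and 8.76% lower. FN1 fell (log2 change -0.68, SE 0.13), from 2356 to 4364 CPM in the first set to 2109 to 2298 CPM in the second, without overlap. The counts were 3 higher and 2 lower without EV replicate 2, 2 higher without EV or OE replicate 5, and none higher without EV replicate 4. NKX2-1 had no count in any library, EPCAM and KRT19 were at or near 0, and TG, the thyroid hormone precursor, did not exceed 1.36 CPM. Marker genes of 4 other cell types (fibroblasts, leukocytes, endothelial cells, neuroendocrine cells) summed to 6.61 to 9.96, 0.736 to 2.44, 3.23 to 4.67 and 1.82 to 2.90 CPM in the first set. In the second set the sums were 7.44 to 9.07, 0.854 to 1.13, 3.50 to 4.53 and 1.79 to 2.44 CPM, and none of the 8 markers tested was called. Of these lists 4 of 9, 5 of 12, 2 of 8 and 3 of 8 genes had no count in any library.

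In the second set 13 of 29 tested immediate-early genes, 14 of 25 of cholesterol synthesis, 13 of 18 heat shock genes and 14 of 27 histone genes were lower, and 21 of 32 genes of DNA replication were higher. Across 15404 tested genes, 2629 (17.1%) were called, meaning a Benjamini-Hochberg adjusted p under 0.05 in edgeR's quasi-likelihood test. Of these 1280 (8.31%) were higher and 1349 (8.76%) lower in the second set. The count was 1250 without EV replicate 4 and 1661 without OE replicate 4. For 1972 genes (12.8%; 977 higher, or 6.34%, and 995 lower, or 6.46%) all 4 second-set libraries also lay on one side of all 6 first-set libraries. Most changes were small: the median absolute log2 change of a called gene was 0.45, and 162 called genes were more than 2-fold higher and 194 more than 2-fold lower. The median log2 change over all tested genes was -0.01. No gene had 10 or more counts in every library of one set and 3 or fewer in every library of the other.

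The set difference was examined within each vector. Of 2575 called genes that could be tested in EV and in OE libraries alone, all 2575 had the same sign in both, and 1426 of the 2629 had an unadjusted p under 0.05 with the same sign in each. These genes were called on the same libraries, so the shared sign is a description and not separate support. Across 14315 genes the log2 change in EV correlated with that in OE at Pearson r = 0.59 (Spearman rho = 0.60), from libraries that do not overlap. EV and OE libraries of a set stand in the same table, however, and same-numbered second-set libraries deviated together (r = 0.26). What they share enters both log2 changes. Taken alone, the 3 against 2 OE libraries called 1869 of 14675 genes (12.7%), with 602 without OE replicate 2 and 998 without OE replicate 1. The EV libraries alone called 61 of 14744 (0.414%; 2331 at an unadjusted p under 0.05; 462 with DESeq2), and this count depended on single libraries, with 1887 without EV replicate 2, 22 without EV replicate 1, 13 without EV replicate 5 and 2 without EV replicate 4. Both fits called 54 genes, which is 88.5% of the EV calls and 2.89% of the OE calls. The set difference itself differed between the vectors for 1 gene of 15404 (0.00649%; 558 at an unadjusted p under 0.05) by the interaction term.

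**Figure D1:**
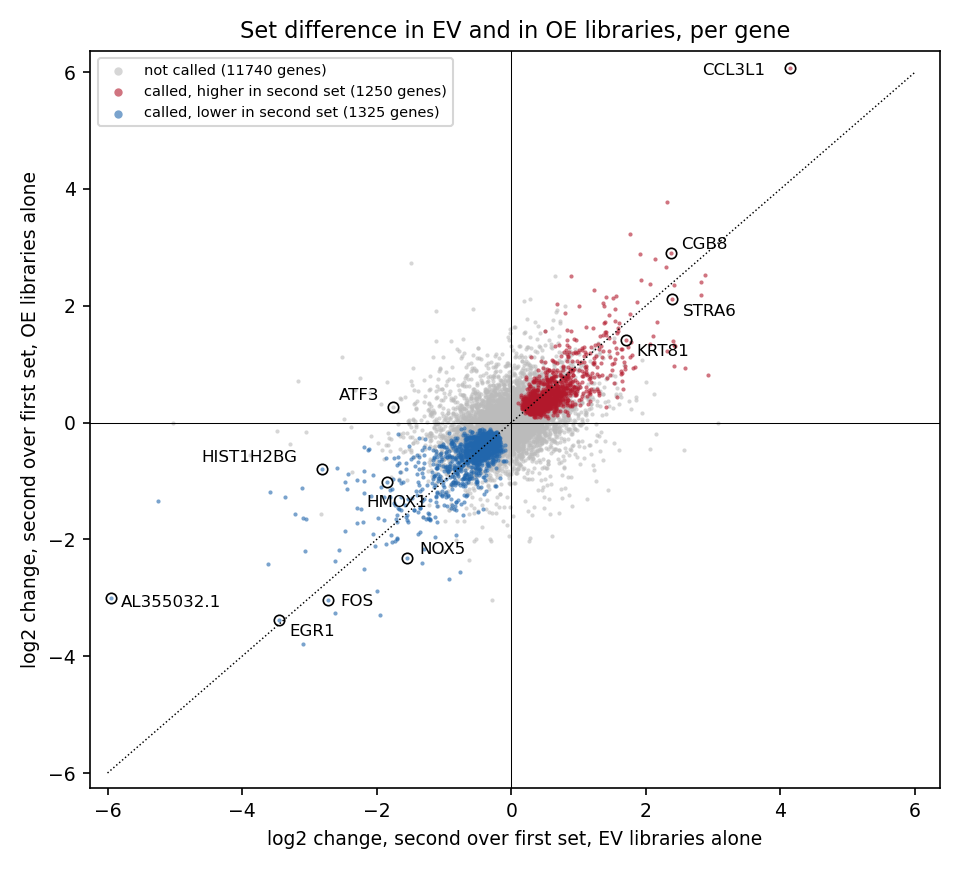
Each point is 1 of 14315 genes, with its log2 change of the second over the first set in EV libraries alone (x axis) and in OE libraries alone (y axis). Coloured points are genes called in the fit over all libraries, higher (red) or lower (blue), and the dotted line marks equal change. The called genes fall in the upper right and lower left parts of the plot, and ATF3 lies in the upper left.

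Promoter windows of 5 genes that the groups below turn on are shown here because each carries a motif by which its group is classically controlled, and the motif is in capitals. They were chosen after the search for holding it: the windows of ACTA2 and DNAJB1 nearest to the annotated start were searched first, had no match to the CArG box and the heat shock element, respectively, and are not shown. The windows run from 250 bases before to 50 bases after the transcription start, 5′ to 3′ on the coding strand, from RefSeq (GRCh38.p14). EGR1 (chr5:138465229-138465528, plus strand) and CNN2 (chr19:1026358-1026657, plus strand) hold the CArG box bound by SRF. HSPA1B (chr6:31827488-31827787, plus strand) holds the heat shock element GAANNTTC. E2F1 (chr20:33686336-33686635, minus strand) and CDT1 (chr16:88803539-88803838, plus strand) hold an E2F site, searched as TTTGGCGC, TTTCCCGC, TTTGGCGG or TTTCGCGC on either strand.
EGR1: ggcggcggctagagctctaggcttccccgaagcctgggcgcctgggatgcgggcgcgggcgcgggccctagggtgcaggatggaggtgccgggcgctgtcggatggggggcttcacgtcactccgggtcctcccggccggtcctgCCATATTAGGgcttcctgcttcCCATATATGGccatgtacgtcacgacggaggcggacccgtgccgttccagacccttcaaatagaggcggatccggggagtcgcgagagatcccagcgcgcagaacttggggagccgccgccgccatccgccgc
CNN2: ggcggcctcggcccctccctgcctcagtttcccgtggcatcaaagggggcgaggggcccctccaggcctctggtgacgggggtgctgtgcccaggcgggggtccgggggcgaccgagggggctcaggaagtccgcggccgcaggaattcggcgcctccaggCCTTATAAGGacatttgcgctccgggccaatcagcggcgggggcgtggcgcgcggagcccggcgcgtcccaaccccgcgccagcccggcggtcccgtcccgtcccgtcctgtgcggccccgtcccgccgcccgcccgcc
HSPA1B: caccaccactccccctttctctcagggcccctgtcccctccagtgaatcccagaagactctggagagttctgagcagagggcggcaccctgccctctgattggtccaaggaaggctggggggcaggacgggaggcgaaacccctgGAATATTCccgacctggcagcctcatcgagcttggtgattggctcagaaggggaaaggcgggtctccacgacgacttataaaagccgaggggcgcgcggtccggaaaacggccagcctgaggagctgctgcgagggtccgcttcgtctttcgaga
E2F1: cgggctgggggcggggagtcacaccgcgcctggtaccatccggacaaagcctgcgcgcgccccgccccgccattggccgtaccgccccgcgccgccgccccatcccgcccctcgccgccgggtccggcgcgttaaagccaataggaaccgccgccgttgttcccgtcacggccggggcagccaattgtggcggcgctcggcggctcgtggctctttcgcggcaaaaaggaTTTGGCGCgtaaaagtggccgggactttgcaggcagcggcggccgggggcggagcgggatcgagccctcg
CDT1: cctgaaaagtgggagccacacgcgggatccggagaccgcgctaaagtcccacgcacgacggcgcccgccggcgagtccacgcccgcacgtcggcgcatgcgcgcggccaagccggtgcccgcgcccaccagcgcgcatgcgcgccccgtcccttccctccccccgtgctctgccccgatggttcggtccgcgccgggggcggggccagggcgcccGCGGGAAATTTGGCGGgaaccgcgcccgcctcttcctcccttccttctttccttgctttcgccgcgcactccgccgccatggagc

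EGR1 has CArG boxes starting 105 and 83 bases before its transcription start. CNN2 has 1 at 89 bases before the start, HSPA1B has its element at 105, E2F1 its site at 20, and in CDT1 sites at 35 and 27 adjoin each other on opposite strands. Over all 35116 windows of that length, 1.29% held a CArG box, 6.77% the heat shock element and 3.35% an E2F site. Among windows of listed genes a CArG box was in 3 of 27 of immediate-early genes and in 12 of 51 of SRF target genes. The heat shock element was in 12 of 26 windows of heat shock genes, and the E2F letters were in 19 of 32 windows of replication genes. These matches describe the letters only, and genes with several annotated starts count more than once.

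Among immediate-early genes EGR1 and FOS had the lowest second-set levels relative to the first. EGR1, a zinc-finger factor induced by growth factors (chromosome 5, 138465490 to 138469315, plus strand), had 98.0 to 135 CPM in the first set with a median of 110 CPM. In the second set it had 4.38 and 14.7 CPM in EV replicates 4 and 5 and 3.32 and 19.9 CPM in OE replicates 4 and 5. Every second-set library was below every first-set library, and replicate 4 was lower than replicate 5 in both vectors. The fall was 10.7-fold (log2 change -3.42, SE 0.36, adjusted p = 5.41e-05).

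FOS, a subunit of the AP-1 transcription factor, had 59.5 to 103 CPM in the first set (median 79.8 CPM) and 4.10, 16.2, 4.21 and 17.1 CPM in EV replicates 4 and 5 and OE replicates 4 and 5. It fell 7.42-fold (log2 change -2.89, SE 0.34, adjusted p = 0.000134), with the same order of replicates as EGR1. FOSB, another AP-1 subunit, went from a median of 52.1 CPM (40.8 to 62.5) to 16.4, 20.1, 22.5 and 23.8 CPM, and IER2, an immediate-early nuclear protein, from 52.8 CPM (49.8 to 58.7) to 19.7, 30.3, 24.9 and 30.4 CPM. The groups did not overlap for either gene, with log2 changes of -1.34 and -1.02 (SE 0.09 and 0.11). Of 29 tested members of the list 13 fell and 2 rose, 11 and 2 without overlap of the sets, and the median log2 change was -0.48. With 1 library left out 9 (without EV replicate 4) to 16 fell and 1 or 2 rose. JUN, JUNB, IER3 and ZFP36 were among those that fell, while MYC (log2 change 0.21, SE 0.07) and the matrix protein gene CYR61 (0.30, SE 0.07) rose.

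Several negative regulators that MAPK signalling induces in its own pathway fell. DUSP6, the phosphatase that inactivates ERK, had 55.2 to 66.4 CPM in the first set (median 57.2 CPM) and 23.9, 29.7, 24.3 and 31.4 CPM in EV replicates 4 and 5 and OE replicates 4 and 5. The sets did not overlap, and the log2 change was -1.13 (SE 0.10, adjusted p = 1.67e-05). SPRY1, an inhibitor of receptor tyrosine kinase signalling, fell by 1.27 on the log2 scale (SE 0.16), from a median of 8.67 CPM to 2.62, 4.40, 2.90 and 4.07 CPM. Of 21 tested genes of this list, which shares EGR1 and MYC with the previous one, 9 fell and 3 rose, with a median of -0.15. SPRY2, SPRY4, DUSP5 and ETV1 fell, and CCND1 (cyclin D1, which drives entry into the cell cycle) rose by 0.30 (SE 0.07).

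**Figure D2:**
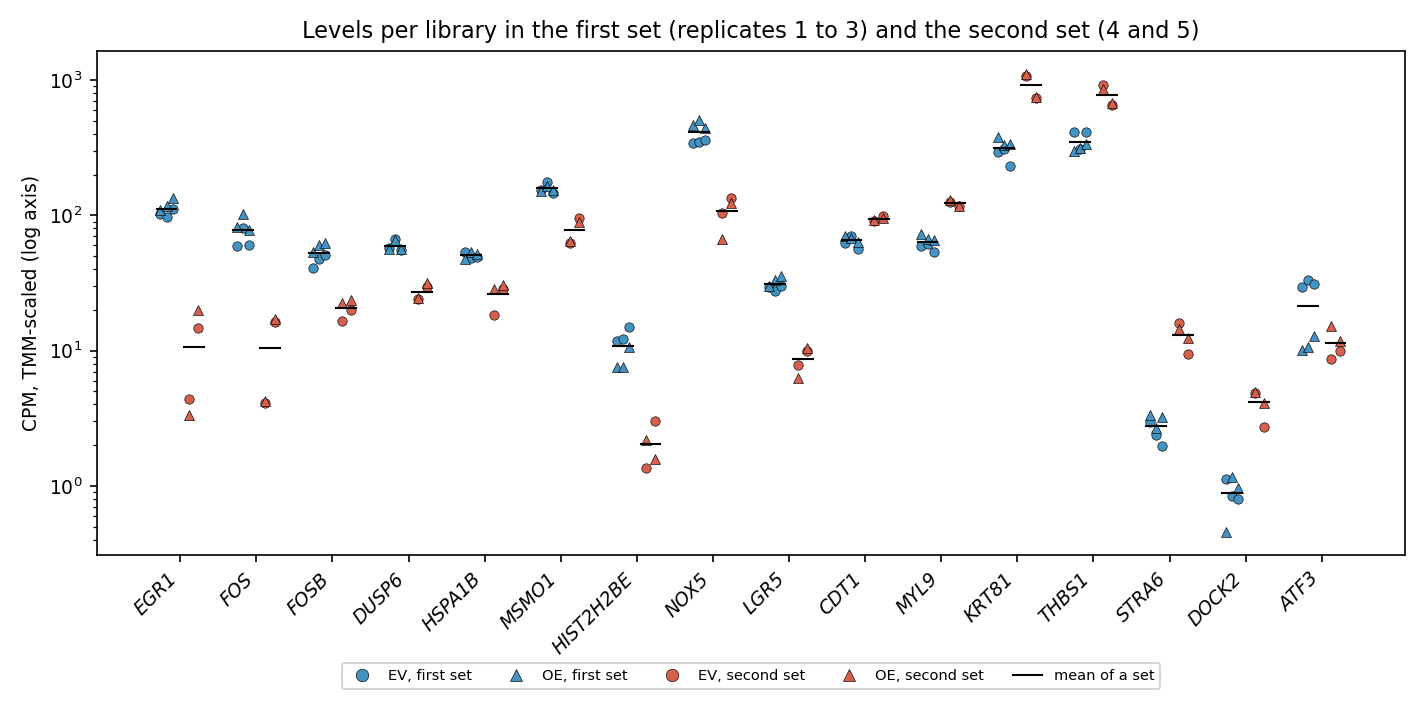
Points are TMM-scaled CPM on a log axis for 16 genes, per library, with circles for EV, triangles for OE, blue for the first set, red for the second set, and bars at the mean of each set. The 2 sets do not overlap for any gene shown but ATF3, whose first-set EV libraries (29.7 to 33.3 CPM) stand above its first-set OE libraries (10.1 to 12.7 CPM).

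SRF also controls genes of the actin cytoskeleton. Of 21 tested SRF target and contractile genes 6 rose and 1 fell (11 and 1 without EV replicate 2), with a median log2 change of 0.16. MYL9, the regulatory light chain of non-muscle and smooth-muscle myosin, had 53.4 to 72.2 CPM in the first set (median 63.7 CPM) and 126, 117, 130 and 117 CPM in EV replicates 4 and 5 and OE replicates 4 and 5. All second-set libraries were above all first-set libraries, a rise of 1.95-fold (log2 change 0.96, SE 0.07, adjusted p = 5.58e-06). CNN2 (calponin 2, an actin-binding protein) rose by 0.53 (SE 0.07), from a median of 142 CPM to 196, 193, 195 and 208 CPM. The exception, ACTA2 (smooth-muscle actin), fell from a median of 6.17 CPM to 1.48, 3.63, 1.13 and 1.801 CPM (log2 change -1.61, SE 0.24).

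Targets of YAP and TAZ, co-activators that respond to cell shape and contact, included 7 that rose and 1 that fell of 28 tested (median 0.11), with 9 and 3 without EV replicate 2. AMOTL2 and FJX1 rose by 0.59 and 0.77 (SE 0.10 and 0.07), CTGF by 0.31 (SE 0.07), and NT5E fell by 0.31 (SE 0.06). Among 26 tested TGF-beta and BMP targets 10 rose and 4 fell (median 0.20). THBS1, a secreted matrix glycoprotein that activates latent TGF-beta, had 298 to 411 CPM in the first set (median 326 CPM) and 928, 655, 864 and 681 CPM in EV replicates 4 and 5 and OE replicates 4 and 5. It did not overlap between the sets and was 2.26-fold higher (log2 change 1.18, SE 0.11, adjusted p = 2.19e-05).

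The BMP-responsive genes ID1, ID3 and ID4, inhibitors of basic helix-loop-helix factors, and SMAD6, an inhibitory SMAD, rose together. Their log2 changes were 0.41, 0.99, 1.47 and 1.02 (SE 0.09, 0.17, 0.26 and 0.12). SMAD6 had a median of 12.2 CPM in the first set and 28.7, 22.6, 25.7 and 19.2 CPM in EV replicates 4 and 5 and OE replicates 4 and 5, with no overlap. The ligand gene BMP4 fell by 0.47 (SE 0.11), from 23.9 ± 3.20 CPM (SD, n = 6) to 17.2 ± 1.34 CPM (SD, n = 4). LTBP1, which anchors latent TGF-beta in the matrix, fell by 0.90 on the log2 scale, and CDKN2B, a cyclin-dependent kinase inhibitor induced by TGF-beta, by 0.69.

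Most of the tested genes of G1/S and DNA replication, 21 of 32, rose by small amounts. CDT1, which loads the replicative helicase at origins, had 56.0 to 70.7 CPM in the first set (median 66.0 CPM) and 91.3, 98.3, 92.6 and 96.1 CPM in EV replicates 4 and 5 and OE replicates 4 and 5. E2F1, the S-phase transcription factor, had 55.6 to 59.8 CPM (median 56.5 CPM) and then 75.5, 84.2, 85.3 and 81.6 CPM. For both the sets did not overlap, and the rises were 1.45-fold and 1.43-fold (log2 change 0.54 and 0.51, SE 0.08 and 0.07, adjusted p = 0.000470 and 0.000250).

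Of 32 tested genes of this list 21 rose, 20 of them without overlap, and none fell (13 rose after same-numbered libraries were summed, and 25 rose and 1 fell without EV replicate 2). The median log2 change was 0.28, and it was 0.31 in EV and 0.24 in OE libraries alone. E2F2 and CCNE2 (cyclin E2) rose by 0.82 and 0.56 (SE 0.13 and 0.08), the helicase subunit gene MCM2 by 0.46 (SE 0.09), and CHAF1B, a histone chaperone subunit, by 0.54 (SE 0.07). PCNA (0.12) and POLA1 (0.08) were not called. Over all tested genes 8.31% rose and 8.76% fell. Of 32 tested genes of G2/M and mitosis 1 rose (3.12%) and 4 fell (12.5%), with a median of 0.01. These counts were 5 and 6 without EV replicate 2, 0 and 1 after same-numbered libraries were summed, and 2 falls without EV replicate 4, OE replicate 4 or OE replicate 5. CKS2, CENPA, HMMR and NUSAP1 were the 4 that fell, CKS2 by 0.61 (SE 0.11). Genes rich in G and C were more often higher in the second set: when genes were divided into 5 bins by the GC content of the transcript, 586 genes of the highest bin were higher and 135 lower, and 94 and 320 of the lowest bin. The correlation of GC content with the log2 change was r = 0.19 across 15399 genes. With GC and length offsets in the fit 25 of the 32 replication genes rose and none fell. Under the same offsets 4 of the 32 genes of G2/M and mitosis rose and 2 fell, with a median of 0.05.

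Among targets of p53, which halts the cycle after damage, 10 of 24 tested fell and none rose (median -0.36), with 5 falls without EV replicate 4, 6 without OE replicate 4, and 1 rise without EV replicate 2 or 5. The median log2 change of these p53 targets was -0.48 in EV libraries alone and -0.18 in OE libraries alone. TP53INP1, a proapoptotic p53 target, went from a median of 48.7 CPM to 23.8, 30.5, 21.3 and 32.5 CPM in EV replicates 4 and 5 and OE replicates 4 and 5 (log2 change -0.86, SE 0.13). GDF15, a stress-induced secreted cytokine, went from a median of 238 CPM to 116, 162, 121 and 181 CPM (-0.73, SE 0.12). The sets did not overlap for either gene, and CDKN1A, the p21 inhibitor of cyclin-dependent kinases, fell by 0.56 (SE 0.15). Of 17 tested genes tied to FOXO factors and growth-factor withdrawal 7 fell and 2 rose; the rises were 0 to 2 with 1 library left out, and 0 without EV replicate 1 or 4 or OE replicate 1, 2, 4 or 5. The genes that fell included the F-box gene FBXO32 (-0.75, SE 0.14) and the cyclin gene CCNG2 (-0.58, SE 0.10).

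**Figure D3:**
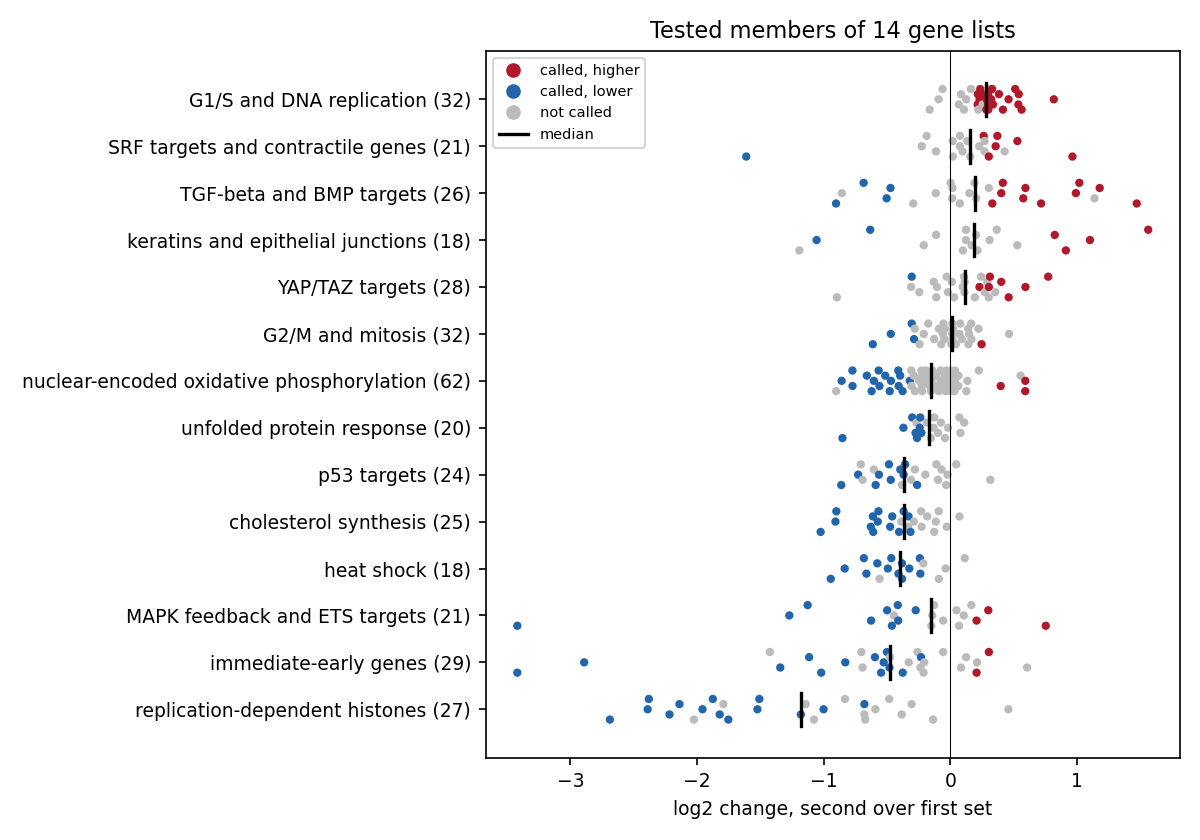
Each point is a tested member of 1 of 14 gene lists, placed by its log2 change of the second over the first set (x axis), red where it was called higher, blue where called lower and grey where not called. Black bars are list medians and the number tested is in brackets. Medians run from -1.18 for replication-dependent histones to 0.28 for G1/S and DNA replication.

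Replication-dependent histone genes, whose messages in S phase end in a stem-loop in place of a poly(A) tail, included many that fell. HIST2H2BE had 7.55 to 14.8 CPM in the first set (median 11.2 CPM) and 1.37, 2.996, 2.19 and 1.57 CPM in EV replicates 4 and 5 and OE replicates 4 and 5. No second-set library reached the first set, and the fall was 5.24-fold (log2 change -2.39, SE 0.22, adjusted p = 1.67e-05). Of 27 tested histone genes 14 fell, 12 without overlap, and none rose (median -1.18, with -1.92 in EV and -0.95 in OE libraries), and 9 fell without EV replicate 4. In all, these genes took 0.0113% ± 0.00268 of counts in the first set (SD, n = 6) and 0.00537% ± 0.000252 in the second (SD, n = 4). That difference had p = 0.00952 in an exact two-sided permutation test over 210 splits, and 0.0857 after Benjamini-Hochberg adjustment over 9 measures. Histone genes are near-identical copies, so reads can be shared among them.

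RN7SL2, a gene of the signal recognition particle RNA, which has many copies, also fell, from 6.23 to 30.1 CPM to 0.683, 2.74, 1.54 and 0.639 CPM (log2 change -3.43, SE 0.53). The nuclear RNA MALAT1 was lower by 0.81 (SE 0.18, adjusted p = 0.00909), a call lost without EV replicate 4 (adjusted p = 0.0553). MALAT1 had 2622, 2500 and 3501 counts in first-set EV libraries and 1493, 1522 and 1906 in first-set OE libraries. In the second set it had 1189 and 1044 counts in EV and 1273 and 1345 in OE, so its fall was larger in EV. The 4 tested non-polyadenylated and nuclear RNAs had a median log2 change of -0.96 in EV and 0.06 in OE libraries alone. Both RN7SL2 and MALAT1 lack an ordinary poly(A) tail. The sources used here do not say whether libraries were poly(A)-selected, and the part of RNA selection in these falls was not tested.

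Transcripts of sterol synthesis genes were lower at many steps of the pathway. MSMO1, the sterol methyl oxidase, had 147 to 177 CPM in the first set (median 154 CPM) and 62.2, 95.1, 65.0 and 89.0 CPM in EV replicates 4 and 5 and OE replicates 4 and 5. HSD17B7, a sterol ketoreductase of the same pathway, had a median of 37.3 CPM and then 16.6, 25.9, 17.0 and 23.5 CPM. The sets did not overlap, replicate 4 was the lower in each vector, and the log2 changes were -1.02 and -0.90 (SE 0.12 for both, adjusted p = 0.000102 and 0.000367).

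Of 25 tested genes of cholesterol synthesis 14 fell and none rose, with a median of -0.37, and 8 fell without EV replicate 4 or without OE replicate 4. HMGCS1, which makes the precursor of mevalonate, fell by 0.57 (SE 0.10), SQLE (squalene epoxidase) by 0.61 (SE 0.11), and the SREBP retention factor INSIG1 by 0.63 (SE 0.14). In fatty acid synthesis 6 of 14 tested genes fell and none rose, led by the desaturase SCD with a log2 change of -0.85 (SE 0.17). Of these 14 genes 3 fell without EV replicate 4, OE replicate 2 or OE replicate 4 or after same-numbered libraries were summed, and 1 rose without EV replicate 2 or OE replicate 4.

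Most tested chaperone genes of the heat shock list fell. HSPA1B, an inducible HSP70, had 47.5 to 53.5 CPM in the first set (median 50.2 CPM) and 18.3, 28.3, 28.4 and 30.6 CPM in EV replicates 4 and 5 and OE replicates 4 and 5. It fell 1.92-fold without overlap (log2 change -0.94, SE 0.11, adjusted p = 0.000170), and its near-identical neighbour HSPA1A by 0.83, so reads may be split between these copies. DNAJB1, the HSP40 partner of HSP70, fell by 0.68 (SE 0.08), from a median of 242 CPM to 137, 157, 135 and 169 CPM. Of 18 tested heat shock genes 13 fell and none rose (median -0.40). Summing same-numbered libraries left 9 falls, and leaving out 1 first-set library left 10 to 13, among these heat shock genes. The constitutive HSPA8, at 3861 ± 198 CPM (SD, n = 6) the most abundant of those named here, fell by 0.38 (SE 0.07). In the endoplasmic reticulum, of 20 tested genes of the unfolded protein response 8 fell and none rose (median -0.17), led by MANF, a secreted stress factor, at -0.85 (SE 0.11). That count was 2 after same-numbered libraries were summed. With 1 library left out, 3 fell in the absence of EV replicate 4, 4 in that of EV replicate 5 or of OE replicates 4 or 5, and 5 in that of EV replicate 1 or of OE replicates 2 or 3.

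Among NRF2 targets, which respond to oxidants, 8 of 24 fell and 5 rose. With 1 library left out the falls were 4 (without EV replicate 4) to 10 and the rises 1 (without EV replicate 4) to 5, with 2 or 3 rises without any 1 of the OE libraries or of EV replicates 1 and 3. HMOX1, which degrades haem, had 719 to 1222 CPM in the first set (median 1008 CPM) and 271, 344, 414 and 420 CPM in EV replicates 4 and 5 and OE replicates 4 and 5 (log2 change -1.42, SE 0.15). All second-set libraries were lower. The ferritin gene FTL fell by 0.53 (SE 0.10), while SRXN1, which repairs oxidised peroxiredoxins, rose by 0.72 (SE 0.16). Hypoxia and glycolysis genes split evenly, with 7 higher and 7 lower of 31 (4 and 6 without EV replicate 4, 3 and 6 after summing same-numbered libraries): VEGFA, the angiogenic factor, fell by 0.79 (SE 0.11), and the glucose transporter gene SLC2A1 rose by 0.48 (SE 0.08). Of 20 circadian clock genes 7 fell (4 without EV replicate 4) and 1 rose, the falls including the repressor genes BHLHE41 (-1.32, SE 0.20) and NR1D1 (-0.98, SE 0.17).

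Single genes outside these lists had the largest rises. STRA6, the retinol transporter, had 1.95 to 3.36 CPM in the first set (median 2.80 CPM) and 15.99, 9.37, 14.3 and 12.4 CPM in EV replicates 4 and 5 and OE replicates 4 and 5. It was 4.73-fold higher, without overlap (log2 change 2.24, SE 0.17, adjusted p = 5.58e-06). DOCK2, a Rac activator best known from leukocytes, went from a median of 0.901 CPM to 4.89, 2.74, 4.98 and 4.07 CPM, and ITGB2, the leukocyte integrin beta subunit, from 1.29 CPM to 4.61, 4.97, 7.52 and 5.05 CPM. Their log2 changes were 2.21 and 1.96 (SE 0.27 and 0.25). PTPRC and the other leukocyte markers summed to at most 1.13 CPM in the same second-set libraries, and their part in these rises was not tested.

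CGB8, 1 of several near-identical genes for the beta subunit of chorionic gonadotropin, rose from a median of 0.616 CPM to 4.15, 4.21, 3.55 and 5.00 CPM (log2 change 2.63, SE 0.25), and reads may be shared among the copies. The chemokine genes CCL5 and CCL2 rose by 1.74 and 0.88 (SE 0.38 and 0.14). CCL5 had log2 changes of 2.33 for replicate 4 and 0.80 for replicate 5, the latter not called (adjusted p = 0.26). CCL3L1, chosen after its values were seen and nearly identical to CCL3, rose by 4.93 (SE 0.82, adjusted p = 0.00131). It did not meet the rule for the largest rises, so its mean log2 CPM was under 1 or its sets overlapped. UCA1, a long non-coding RNA first described in bladder cancer, rose from a median of 4.05 CPM to 15.02, 14.8, 11.8 and 14.99 CPM (log2 change 1.68, SE 0.16).

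Keratins and junction genes changed in both directions. KRT81, a hair-type keratin, had 232 to 383 CPM in the first set (median 319 CPM) and 1075, 735, 1117 and 754 CPM in EV replicates 4 and 5 and OE replicates 4 and 5. It was 2.95-fold higher without overlap (log2 change 1.56, SE 0.13, adjusted p = 7.86e-06), and its close relative KRT86 rose by 1.81 (SE 0.27). The annotated KRT86 gene spans KRT81 on the opposite strand and overlaps KRT7, and the sources used here do not say whether the counting used strand, so these genes may share reads. PKP3, a desmosomal plakophilin, rose by 0.82 (SE 0.11) and KRT7 by 1.10 (SE 0.26), the latter not called without EV replicate 4 (adjusted p = 0.0666). CLDN1, a tight-junction claudin raised in papillary thyroid carcinoma, fell by 1.06 (SE 0.10), from a median of 174 CPM to 93.0, 73.0, 98.1 and 69.1 CPM. Of 18 tested genes of this list 4 rose and 2 fell, with 1 fall when any library but EV replicates 2 to 4 and OE replicate 3 was left out.

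Large falls were also seen at other well-expressed genes. NOX5, a calcium-activated NADPH oxidase, had 346 to 510 CPM in the first set (median 402 CPM) and 104, 136, 66.5 and 123 CPM in EV replicates 4 and 5 and OE replicates 4 and 5. It was 3.81-fold lower (log2 change -1.93, SE 0.18, adjusted p = 1.67e-05). LGR5, the R-spondin receptor and Wnt target, fell 3.59-fold, from a median of 30.0 CPM to 7.85, 9.88, 6.28 and 10.4 CPM, and neither gene overlapped between the sets. HES1, a Notch target, fell by 1.41 (SE 0.20). CHST1, a keratan sulfate sulfotransferase gene, fell from a median of 7.13 CPM to 0.398, 2.49, 0.889 and 3.49 CPM (log2 change -1.98, SE 0.36).

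Of 22 tested genes of matrix proteolysis 6 fell and 1 rose, with none higher without EV replicate 4. MMP1, the interstitial collagenase, fell by 1.45 (SE 0.19), PLAU, the urokinase gene, by 0.66 (SE 0.10), and MMP14, a membrane-bound collagenase, by 0.43 (SE 0.06). PLAU had 1736 to 1976 CPM in the first set (median 1881 CPM) and 1333, 988, 1404 and 1007 CPM in EV replicates 4 and 5 and OE replicates 4 and 5, with replicate 5 the lower in each vector. IL24, an interleukin of the IL10 family, fell by 1.45 (SE 0.14).

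Mitochondrial transcripts were examined by class. Of 17 tested mitochondrial tRNA genes 9 rose and none fell, with a median log2 change of 0.98 and 4 of them without overlap. With 1 library left out 4 (without OE replicate 5) to 10 rose, 5 without EV replicate 4 or 5, and 1 fell without OE replicate 4. MT-TN and MT-TC, the most abundant of the tested tRNA genes, were not called. MT-TN went from a mean of 121 CPM to 98.7 CPM (log2 change -0.29, SE 0.14), and MT-TC from 75.1 to 92.0 CPM (0.29, SE 0.10). Low levels were common among the others, as at MT-TS1, with means of 0.194 and 1.30 CPM (log2 change 2.69). MT-TL1, the leucine tRNA gene beside the large ribosomal RNA, rose by 0.98 (SE 0.13), from 13.2 ± 3.30 CPM (SD, n = 6) to 25.7 ± 2.55 CPM (SD, n = 4). MT-ND1, the complex I subunit next to it, had 2006 to 2392 CPM in the first set and 3100, 3046, 2897 and 2611 CPM in EV replicates 4 and 5 and OE replicates 4 and 5 (log2 change 0.42, SE 0.06).

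Other mitochondrial messages fell: MT-ATP8, a short ATP synthase subunit, by 1.11 (SE 0.15), MT-ND3 by 0.67 (SE 0.12) and MT-CO1, the catalytic subunit of cytochrome oxidase, by 0.34 on the log2 scale. Of 13 protein-coding mitochondrial genes 2 rose and 3 fell, with 5 falls without EV replicate 2 and 1 rise when any library but EV replicate 2 and OE replicate 1 was left out, and tRNA counts may include reads of precursors and of neighbouring messages. Among 62 tested nuclear genes of oxidative phosphorylation 16 fell and 3 rose (median -0.15, or -0.05 with 5 rises without EV replicate 2), and 4 fell without EV replicate 4. NDUFB3 and ATP5F1E, small subunits of complex I and of ATP synthase, fell by 0.86 and 0.77 (SE 0.12 and 0.16), and CYC1, cytochrome c1, rose by 0.59 (SE 0.07).

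**Figure D4:**
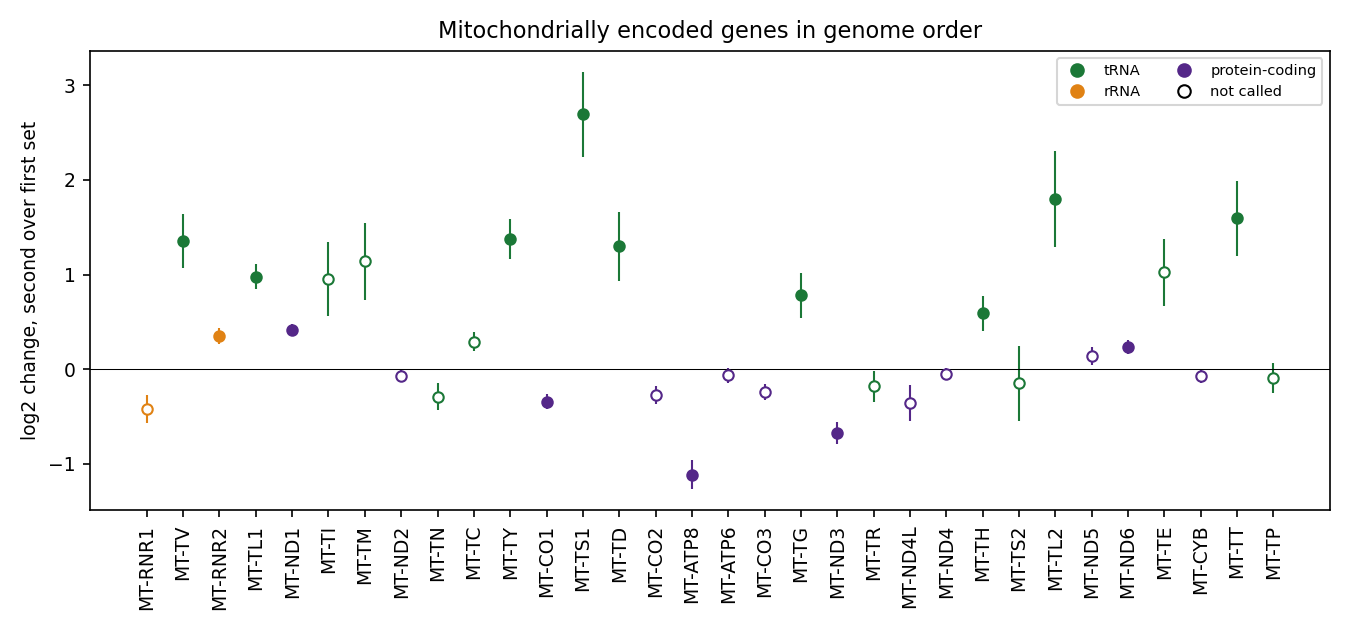
Points are log2 changes of the second over the first set (y axis) for 32 tested mitochondrially encoded genes in their order along the genome, with bars of 1 SE. Green marks tRNA, orange rRNA and purple protein-coding genes, and open points were not called. All called tRNA genes lie above 0, while MT-ATP8 (-1.11) and MT-ND3 (-0.67) lie below.

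Over all tested genes 8.31% were higher and 8.76% lower. Ribosomal protein genes changed little as a group, with 1 of 78 higher (1.28%) and 7 lower (8.97%), and a median of -0.09. RPS23 fell by 0.87 (SE 0.11), from a median of 294 CPM to 175, 171, 181 and 157 CPM in EV replicates 4 and 5 and OE replicates 4 and 5. RPL26 rose by 0.97 (SE 0.12), from a median of 22.2 CPM to 49.1, 44.8, 45.3 and 48.2 CPM. Without EV replicate 2, the library with the highest ribosomal protein share, 10 rose and 9 fell, and 2 fell without EV replicate 4, EV replicate 5 or OE replicate 5, and 4 without OE replicate 1. Processed pseudogenes, which are near-identical to their parent genes, were lower more often than higher (82 and 20 of 560 tested). With 1 library left out 37 (without EV replicate 4) to 78 were lower and 10 (without OE replicate 4) to 29 higher, and 47, 51 and 52 were lower when EV replicate 5, OE replicate 5 or OE replicate 1, respectively, was the library left out. Examples are TMSB4XP8 (log2 change 1.57, SE 0.09) and RPL9P7 (-2.17, SE 0.18), whose reads may be shared with TMSB4X and RPL9.

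The 2 second-set replicate numbers were not alike. Against the first set, the 2 libraries numbered 4 called 1685 of 16272 genes (10.4%) and the 2 numbered 5 called 781 of 16233 (4.81%). These fits share the first set, so their values are given side by side. Interferon-response genes were the widest case among the 42 lists: the median log2 change over 39 tested members was 1.06 for replicate 4 and -0.22 for replicate 5, with 26 higher and none lower for the former and none higher and 7 lower for the latter. DDX60, an antiviral helicase-like gene, had 48.2 to 55.3 CPM in the first set, 130 and 122 CPM in EV and OE replicate 4, and 55.5 and 64.1 CPM in EV and OE replicate 5. ISG20, an interferon-induced exonuclease, had 26.1 and 28.3 CPM in replicate 4 and 8.80 and 9.12 CPM in replicate 5, against 7.38 to 10.8 CPM in the first set.

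In the fit over all libraries 8.31% of all tested genes were higher and 8.76% lower. Of 39 tested interferon genes 5 (12.8%) were higher and 1 (2.56%) lower. The number higher was 14 without EV replicate 2, 18 without EV replicate 5 and 15 without OE replicate 5. Leaving out EV replicate 4 left 0, and leaving out OE replicates 1, 2, 3 or 4 left 2, 1, 3 and 1, respectively. DDX60 and ISG20 (log2 change 0.84 and 1.03) were not called without EV replicate 4 (adjusted p = 0.0658 and 0.156). The medians of the sterol genes were -0.59 for replicate 4 and -0.18 for replicate 5, and had one sign, as did those of the p53 targets (-0.54 and -0.19) and the immediate-early genes (-0.54 and -0.25). EGR1 had log2 changes of -4.85 and -2.70. Replication genes (0.25 and 0.31), heat shock genes (-0.49 and -0.36) and genes of oxidative phosphorylation (-0.17 and -0.13) had closer medians. The differences between the replicate numbers were not tested.

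**Figure D5:**
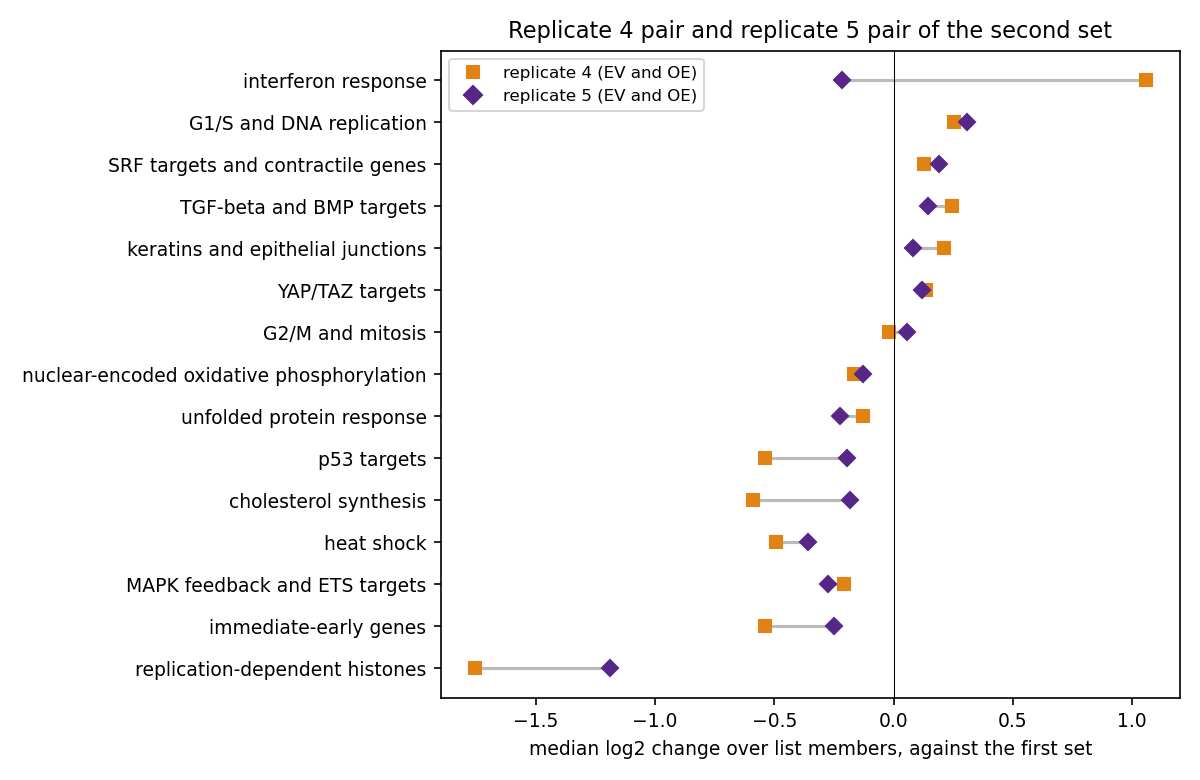
Squares (replicate 4, EV and OE) and diamonds (replicate 5, EV and OE) mark the median log2 change against the first set over the tested members of 15 gene lists (x axis). The interferon response lies at 1.06 for replicate 4 and -0.22 for replicate 5, and the median of G2/M genes, near 0, also differs in sign, while the other lists lie on one side of 0.

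ATF3, a stress-induced transcription factor, was the 1 gene whose set difference was called as different between the vectors. It had 29.7, 33.3 and 31.1 CPM in EV replicates 1 to 3 and 8.59 and 9.88 CPM in EV replicates 4 and 5. In OE it had 10.1, 10.7 and 12.7 CPM in replicates 1 to 3 and 15.3 and 11.7 CPM in replicates 4 and 5. Only the first-set EV libraries were high, so that the set difference in OE exceeded that in EV by 2.04 on the log2 scale (SE 0.23, adjusted p = 0.0113). The next lowest p-values of the interaction were those of KLF10, GADD45A, HIST1H2BG, NEAT1 and TXNIP, which did not pass the threshold. Their differences were 1.07, 1.27, 2.04, 0.97 and 0.77 on the log2 scale, in the same direction as ATF3. The call at ATF3 was not made without EV replicate 4 or 5 or without OE replicate 1, 2 or 4.

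The libraries gave a median SE of 0.12 on the log2 scale over tested genes, and in 78.0% of genes the whole 95% interval stayed under a 2-fold change either way. The interval of the remaining genes reached past 2-fold, so for them a change of that size was not excluded by these libraries where no call was made. Because RNA was taken from whole cultures, fewer cells in a state and less RNA per cell cannot be told apart.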

How the data were processed

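Per the file headers, the authors deposited a raw count per gene and library in each table, and the counts are whole numbers. Per the submitters' processing notes the build was hg38, and the tools named are featureCounts 1.5.0-p3, HISAT2 2.0.5, DESeq2 1.20.0, CASAVA 1.8 and fastp. Their settings, including strand and multi-mapped reads, were not given in the sources used here. A further 14 per-library columns were not used. Counts of 58735 genes were joined by identifier.

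The second set was tested against the first with edgeR 4.0.16 in R 4.3.3 (quasi-likelihood test, TMM scaling, filterByExpr over the 4 groups, vector as a term, Benjamini-Hochberg adjusted p under 0.05). EV and OE libraries were also fitted alone, and a set by vector interaction was tested. SE is that implied by the test. Library shares were compared by exact two-sided permutation. At this depth 3 counts, taken as the floor for a count of 0, equal 0.166 to 0.190 CPM, which covers counting error only. No library repeated another of its group (for pairs of libraries, with genes of 20 or more counts, chi-square divided by its degrees of freedom was 4.30 to 45.2).

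The comparison, the 42 lists (997 genes, 995 matched, 851 tested) and the tests were chosen with earlier results of these data known. Named genes are the 12 largest rises and falls among called genes without overlap and with mean log2 CPM of at least 1, the 3 of lowest p in each list (unadjusted p under 0.05), the 6 of lowest interaction p, and the thyroid markers. Other list members were named after their values were seen. Alternatives used limma 3.58.1, DESeq2 1.42.0, other filters and scalings, and fewer libraries.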

Additional observations from a re-analysis of the deposited data

Results flagged for a closer look

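Over 80 groups of library values checked for a library far from its group, 6 stood out by Dixon's criterion, where chance gives about 1 in 20. In the first set EV replicate 2 was high for the pseudogene AL355032.1 (6.81 CPM, others 2.33 to 3.58), for LINC01111 (3.34 CPM, others 1.30 to 2.02) and for the share of counts on processed pseudogenes (0.686%, others 0.515% to 0.560%). EV replicate 3 was high for the share on small nuclear and miscellaneous RNA genes (0.0132%, others 0.00758% to 0.00833%). In the second set OE replicate 4 was high for ITGB2 (7.52 CPM, others 4.61 to 5.05) and low for UCA1 (11.8 CPM, others 14.8 to 15.02). The sets did not overlap for any of the 4 genes named here, but these had been chosen among genes without overlap, so this holds by selection.

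The set difference of ATF3 differed between the vectors by the interaction term, by 2.04 on the log2 scale (OE minus EV).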

How the results depend on the processing

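Over all libraries 2629 genes were called. That count stayed within 1.5 times of this with limma-voom, DESeq2 (3239), other scaling, either filter, no vector term, and GC and length offsets, which kept 76.6% of the calls and turned the sign of 5. It was 1557 after same-numbered libraries were summed, 1685 and 781 with replicate 4 or 5 alone as the second set, and 619 when a change above 1.2-fold was required. Leaving out 1 library gave 1250 (without EV replicate 4) to 3831 (without EV replicate 2), and 1661 without OE replicate 4. The EV count (61) was 462 with DESeq2, 755 with no low-count filter, and 2 (without EV replicate 4) to 1887 (without EV replicate 2) with 1 library left out, 22 and 13 without EV replicates 1 and 5. The OE count (1869) was 602 (without OE replicate 2) to 2369, and 998 without OE replicate 1. The interaction count (1) was 9 with DESeq2, 28 with no filter, and 0 to 8 with 1 library left out, the 8 without EV replicate 2. Leaving out a second-set library also lets more low genes pass the filter, and where a group keeps 1 library it is assumed to vary like the others; other causes were not tested.

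A replicate block called 1967 genes, 1964 of them (74.7% of 2629) called without it, and no call changed sign. Deviations of same-numbered libraries correlated at -0.09, 0.0050 and 0.13 for replicates 1 to 3, so the numbers were not shown to pair the libraries of the first set. Same-numbered libraries of the second set deviated together, at 0.26 for replicates 4 and 5 alike. With 2 libraries per vector the values of replicates 4 and 5 must be equal, so they count as 1 value. Of the named genes only uncalled ones changed sign. LGALS3 (-0.07) was 0.087 with replicate 4 alone, 0.035 with GC and length offsets and -0.15 to 0.038 with 1 library left out. NEAT1 (-0.08) was 0.10 with replicate 5 alone and -0.23 to 0.11 with 1 library left out. PAX8 (-0.05) was 0.052 with replicate 5 alone and -0.12 to 0.025 with 1 library left out, and KRT8 (0.37) was -0.047 with replicate 5 alone. Depth limits genes of low count: in the lowest of 5 bins of expression the median SE was 0.45, against 0.09 in the fourth.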
